A study of Mus musculus with 12 samples.

Results

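Solute carriers are membrane proteins that move amino acids, sugars, nucleosides, vitamins, metals and other ions across the plasma membrane and the membranes of organelles. The 190 genes described here are the protein-coding genes of the table whose symbol starts with Slc and a family number, whose mean was at least 20 normalized counts over all 12 libraries, and which are not *Slc2a5*, *Slc40a1* or *Slc11a1*. The table held 240 protein-coding genes with such a symbol, of which 48 had a mean below 20, among 18376 genes in all. The members were thus chosen by a measured value, their mean over the 12 libraries, and their levels are given as a description. It ranged from 32.1 for *Slc35g1*, the member just inside the limit, to 3729 for *Slc43a2*, with a median of 419. The gene just outside, *Slc12a5*, had a mean of 19.9, with 27, 37 and 19 normalized counts in CTRL, against 5, 3 and 1 in Act.

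The libraries came from bone marrow-derived macrophages (BMDMs), macrophages grown in culture from progenitor cells of adult WT C57BL6/J mice. All cells received 50 ng/ml M-CSF, the growth factor that drives macrophage differentiation, for 6 days. CTRL cells received nothing else, Act cells 50 ng/ml activin A, FST cells 250 ng/ml FST288, and Act+FST cells both, with 3 libraries in each group. Activin A is a cytokine of the TGF-β family and FST288 is a form of follistatin, a protein that binds activin A. The sources do not say whether libraries of a group came from separate mice or cultures, so the p-values measure the spread between libraries, which may be technical. The same replicate numbers 1 to 3 run through every group.

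In macrophages, solute carriers supply the arginine used by nitric oxide synthase and arginase, the cystine from which glutathione is made, and the glucose for glycolysis, and they carry lactate out of the cell. Others work inside the cell. Carriers of lysosomes recover amino acids, peptides, nucleosides and heme from engulfed material, and carriers of the inner mitochondrial membrane exchange metabolites between the cytosol and the matrix. Some light chains of the SLC7 family reach the plasma membrane only when joined to the heavy chain SLC3A2.

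Total normalized counts lay between 5643708 and 5955400 per library, and because they had been scaled by the authors they do not show the original depth. The members took between 1.71% (Act+FST) and 1.74% (Act) of the total. All 8 macrophage markers examined were present, with sums of 11172 to 12394 across the libraries, and 1 of them (*Cd14*) was higher in Act. The 3 proliferation markers summed to 1185 to 1282 in Act and to 1419 to 3551 elsewhere, and 2 of the 3 were lower in Act than in CTRL. Their highest sum, 3551, was that of Act+FST replicate 3. Stromal markers, of which 6 of 7 were in the table, summed to 22 to 132 outside Act and to 251, 61 and 55 in Act. Only genes with a mean of at least 5 were tested, and none of the 3 such stromal markers passed. Neutrophil markers summed to 680 to 1218 in all groups, and 2 of 7 were lower in Act. The 4 B cell markers (sums of 76 to 117), 3 megakaryocyte markers (32 to 153) and 5 dendritic cell markers (64 to 180) held 3, 2 and 4 tested genes. None of these passed. Mast cell or basophil markers summed to 12 to 37 in Act and 37 to 72 elsewhere. Of the 3 in the table, 1 was tested and was lower in Act. The only T cell marker in the table was at 0 to 3, and no erythroid marker was in it. The part of other cell types and of proliferation in the results below was not tested, and in bulk RNA fewer cells of a type cannot be told apart from less RNA per cell.

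Levels can be compared between genes only per exonic length. On that scale, the members lay between 5.47 and 386 normalized counts per kb, with a median of 83.35. The median was 80.2 for all genes with a mean of at least 20, the limit the members had to reach. The highest carriers were those of taurine (*Slc6a6*, 385 per kb), of branched and aromatic amino acids (*Slc43a2*, 371 per kb), of lysosomal heme (*Slc48a1*, 364 per kb) and the lysosomal *Slc46a3* (385 per kb). *Slc37a2*, a sugar phosphate carrier, stood at 348 per kb, and the endosomal sodium/proton exchanger *Slc9a9* and the mitochondrial oxoglutarate carrier *Slc25a11* both at 285 per kb. *Slc9a3r1* reached 386 per kb, but it encodes a scaffold protein and shares only the prefix with the carriers, as do *Slc4a1ap* and *Slc7a6os*. None of these abundant genes was called in any comparison. *Slc6a6* gave 3457, 3096 and 3323 in the CTRL libraries and 3394, 3087 and 3136 in the Act libraries, and the groups overlapped (log2 fold change −0.04, 95% interval −0.16 to 0.08).

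Cells given activin A showed large changes in a few carriers of low abundance, while most members stayed close to their control level. A member was called in a comparison if it changed 2-fold or more with a limma adjusted p not above 0.05. Fold changes are on the scale of log2(normalized count + 1), which understates the change of low genes. In Act versus CTRL, 10 of the 190 members were called higher in Act (5.26%), against 2.58% of all 14318 genes tested, and 4 were called lower (2.11%), against 3.09%. For 3 of these members the limit of 20 was reached through some groups alone. *Slc36a2* reached it through Act (a mean of 125 there and 5.56 in the other 9 libraries), so that it had to differ. *Slc18a1* (15.7 and 52.8) and *Slc39a12* (19.7 and 132) reached it through the other groups. Those groups would have carried them past the limit whatever their level in Act, so their fall was not fixed by the limit. Without these 3 genes, 9 were called higher and 2 lower, 29 and 21 passed the adjusted p alone, and no count of calls that holds them is independent of how the members were chosen. By the adjusted p alone, 30 members were higher (15.8%), against 10.3% of all genes, and 23 were lower (12.1%), against 9.97%. Among genes with a mean of at least 20, the share was 11.3% higher and 10.8% lower. With the replicate number as a block, 45 members were higher and 46 lower by the adjusted p, against 16.3% and 15.2% of all genes, including all 53 found without it, and the 14 called members were the same. Quantile normalization gave 26 higher and 31 lower instead of 30 and 23. The log2 fold change was under 0.2 in size for 119 of the 190 (62.6%), and its median was −0.01, against 0.00 over all genes tested. Called members had between 5.47 and 98.5 normalized counts per kb, and all of them except *Slc2a6* lay below the members' median of 83.35.

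**Figure D1:**
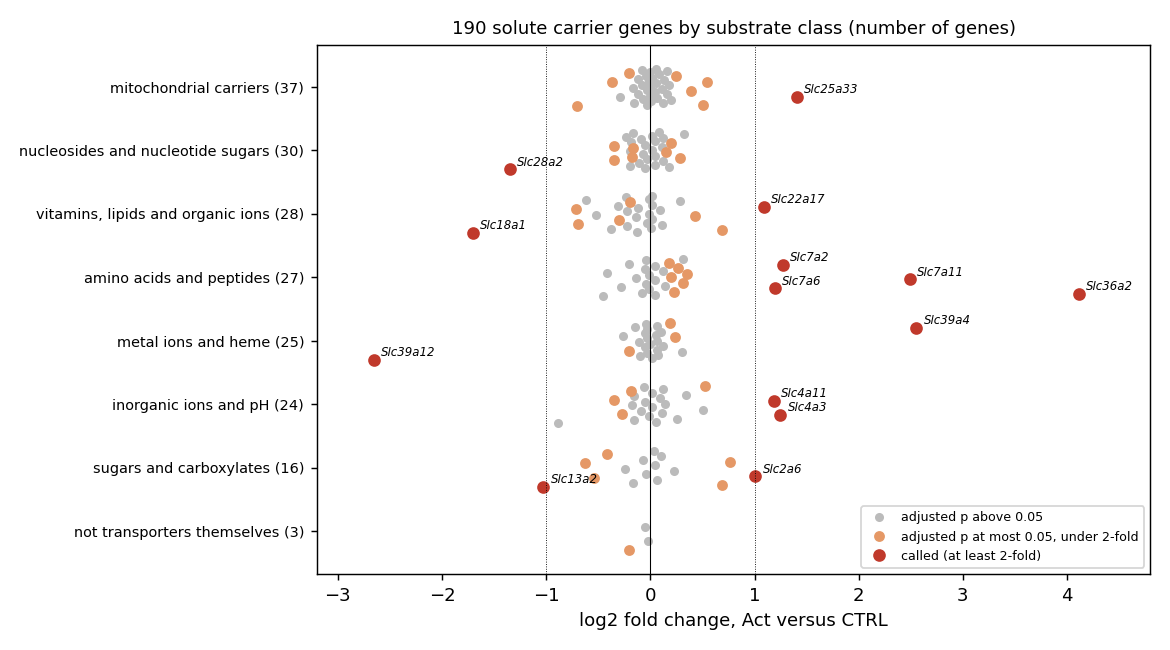
Log2 fold change of each of the 190 genes in Act versus CTRL (horizontal axis), by substrate class (vertical position, with the number of genes). Each point is a gene, red where called, orange where only the adjusted p was at most 0.05, and dotted lines mark a 2-fold change. Among the 27 amino acid and peptide carriers every gene that passed the test without the replicate block lies to the right of 0, and *Slc36a2* (4.11) and *Slc39a12* (−2.66) are the extremes.

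Of the 27 carriers of amino acids and peptides, 10 were higher in Act and 0 were lower by the adjusted p (all genes, 10.3% and 9.97%). Called higher were 4 (all genes, 2.58%), among them *Slc36a2*, which had to differ. With the replicate block, 12 were higher and 3 lower by the adjusted p (all genes, 16.3% and 15.2%). Their summed normalized counts were 22917, 22329 and 22843 in CTRL, 24623, 23821 and 24189 in Act, 22044, 22483 and 22103 in Act+FST, and 22379, 23114 and 22556 in FST. Every Act library thus lay above the libraries of the other groups. The median log2 fold change of the class was 0.05. The shares over all genes given above for Act versus CTRL also apply to the counts of the classes and families below.

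*Slc7a11* (ENSMUSG00000027737, chromosome 3 from 49892526 to 50443614 of GRCm38, minus strand) encodes xCT, which imports cystine in exchange for glutamate. The 250 bases before its start, from RefSeq on GRCm38.p6 (chr3:50443614-50443863, minus strand, read in the direction of the gene), are shown because the gene is a textbook target of the amino acid response. Capitals mark the matches to TGATGNAA on either strand, the core of the amino acid response element.
Slc7a11: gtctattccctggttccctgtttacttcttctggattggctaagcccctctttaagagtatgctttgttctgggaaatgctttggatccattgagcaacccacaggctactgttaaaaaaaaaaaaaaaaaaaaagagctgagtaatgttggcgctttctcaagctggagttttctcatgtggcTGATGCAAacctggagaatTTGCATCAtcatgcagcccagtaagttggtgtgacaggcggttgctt
The 2 matches face each other on opposite strands.

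*Slc7a11* held 85, 54 and 83 normalized counts in CTRL, 382, 327 and 562 in Act, 44, 36 and 40 in Act+FST, and 66, 49 and 73 in FST. All Act libraries were far above the rest, and all Act+FST libraries lay below every CTRL and FST library. The rise was 5.63-fold (log2 fold change 2.49, 95% interval 2.01 to 2.98, adjusted p = 1.1e-05). In Act+FST versus CTRL the log2 fold change was −0.85, with an adjusted p of 0.68 without the replicate block and 0.023 with it, and *Slc7a11* was the only member to pass in that comparison.

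The proton-coupled carrier of glycine and proline, *Slc36a2*, was near absent outside Act. Its values were 4, 8 and 7 in CTRL, 95, 121 and 158 in Act, 5, 1 and 8 in Act+FST, and 4, 3 and 10 in FST. Against CTRL, the log2 fold change was 4.11 (95% interval 2.97 to 5.25, adjusted p = 1.6e-04). Its lysosomal relative *Slc36a1* rose much less, from a mean of 1317 to 1487 normalized counts (log2 fold change 0.18, adjusted p = 0.027).

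Cationic amino acid carriers changed unequally. *Slc7a2*, which carries arginine, had 66, 65 and 90 normalized counts in CTRL, against 164, 166 and 204 in Act, without overlap. It returned to 89, 69 and 66 in Act+FST and was 63, 58 and 77 in FST, and its rise was 2.41-fold (adjusted p = 2.0e-04). *Slc7a2* shares 6.95% of its exonic bases with a gene on the opposite strand. The housekeeping arginine carrier *Slc7a1* had 225, 173 and 165 in CTRL and 151, 147 and 112 in Act, with a log2 fold change of −0.45 (95% interval −0.82 to −0.09) and an adjusted p of 0.08, or 0.023 with the block.

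*Slc7a6*, a light chain that exchanges cationic for neutral amino acids, rose 2.29-fold (adjusted p = 4.7e-05). Its values of 261, 239 and 251 in Act stood above 130, 107 and 92 in CTRL, 104, 108 and 87 in Act+FST, and 115, 93 and 105 in FST. The related light chains *Slc7a7* and *Slc7a8* also rose, by 0.27 (adjusted p = 0.0028) and 0.23 (adjusted p = 0.0022) on the log2 scale. *Slc7a8* was much more abundant than the called light chains, with 254 normalized counts per kb against 30.9 for *Slc7a6* and 10.8 for *Slc7a11*.

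The heavy chain *Slc3a2*, which these light chains share, held 966, 958 and 939 normalized counts in CTRL, against 985, 981 and 983 in Act. Its log2 fold change was 0.04 (95% interval −0.07 to 0.16, adjusted p = 0.64), so a change of more than 0.16 lies outside the interval. At 271 normalized counts per kb it was higher than any of its light chains named here. *Slc7a5*, the light chain for large neutral amino acids, had 54, 64 and 32 in CTRL, 36, 46 and 37 in Act and 42, 40 and 130 in Act+FST. The value of 130 belongs to Act+FST replicate 3, the library with the highest proliferation markers. Of the amino acid response, *Asns* (173) and *Mthfd2* (202) were also highest in that library, while *Psat1* (224) was not. The part of either in this value was not tested, and *Slc7a5* did not pass the test (adjusted p = 0.68). *Slc7a13*, which carries aspartate and glutamate, had 28, 26 and 33 in CTRL, 30, 27 and 12 in Act, 52, 43 and 45 in Act+FST, and 41, 27 and 33 in FST. It was called only in Act versus Act+FST (log2 fold change −1.08, adjusted p = 0.018), and the call was lost without Act replicate 3 (−0.69) or Act+FST replicate 1 (adjusted p = 0.054), with a pseudocount of 5 (−0.95) and when only the libraries compared were fitted (adjusted p = 0.055).

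Other amino acid carriers that rose did so under 2-fold. *Slc38a2*, a sodium-coupled carrier of small neutral amino acids, had 719, 669 and 701 normalized counts in CTRL, against 903, 841 and 926 in Act (log2 fold change 0.35, adjusted p = 0.0029). *Slc15a3*, which carries peptides and histidine across lysosomal membranes, rose by 0.20 on the log2 scale (adjusted p = 0.023) and shares 28.06% of its exonic bases with *Tmem132a* on the opposite strand. The glutamine carrier *Slc1a5* did not move beyond its spread, at 326, 385 and 371 in CTRL and 336, 367 and 370 in Act (log2 fold change −0.01, 95% interval −0.21 to 0.19).

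Amino acid carriers are among the targets of the amino acid response driven by ATF4, so its other genes were examined. Of 17 genes of that list tested, 1 was higher in Act and 3 were lower by the adjusted p (all genes, 10.3% and 9.97%). Of them 0 were called (all genes, 2.58% higher and 3.09% lower), and the median log2 fold change was −0.13. *Psat1*, of serine synthesis, was higher (0.49, adjusted p = 0.033). Asparagine synthetase *Asns* was lower, with means of 89.3 in CTRL and 53.7 normalized counts in Act (−0.71, adjusted p = 0.038), and so were the transcription factors *Atf5* (−0.52, adjusted p = 0.0018) and *Ddit3* (−0.33, adjusted p = 0.0037). *Atf4* itself had a log2 fold change of 0.09 (adjusted p = 0.26). With the block, 4 genes of the list were higher (*Psat1*, *Cebpb*, *Nupr1* and *Vldlr*) and the same 3 lower (all genes, 16.3% and 15.2%). The part of the amino acid response in the changes of the carriers was not tested.

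The 25 carriers of metals and heme held 2 of the largest changes among the members, in opposite directions. *Slc39a4* encodes the zinc importer ZIP4. Its values were 53, 53 and 60 normalized counts in CTRL, 305, 295 and 396 in Act, 91, 74 and 77 in Act+FST, and 58, 47 and 51 in FST. Every Act library was above the others, and every Act+FST library was above every CTRL and FST library. The rise in Act versus CTRL was 5.87-fold (log2 fold change 2.55, adjusted p = 4.1e-07), while Act+FST versus CTRL gave 0.53 with an adjusted p of 0.62, or 0.069 with the block.

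*Slc39a12*, encoding the zinc importer ZIP12, showed the reverse pattern. It fell from 121, 121 and 138 normalized counts in CTRL to 22, 23 and 14 in Act, with 117, 121 and 130 in Act+FST and 134, 149 and 155 in FST. The log2 fold change was −2.66 (95% interval −3.01 to −2.30, adjusted p = 6.7e-07), and Act did not overlap with any other group. No other zinc transporter came near these sizes. Of the 12 SLC39 importers 1 was higher and 2 were lower by the adjusted p, the third being *Slc39a3* (−0.20, adjusted p = 0.014). Of the 6 zinc carriers of the SLC30 family, 1 was higher, *Slc30a9* (0.24, adjusted p = 5.3e-04).

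The plasma membrane exporter *Slc30a1*, a textbook target of the zinc sensor MTF1, had a log2 fold change of −0.01 (95% interval −0.19 to 0.17). None of the 4 metal response genes passed the test, and the metallothioneins *Mt1* (−0.18, adjusted p = 0.18) and *Mt2* (−0.35, adjusted p = 0.086) had lower means in Act. With the block, 2 of the 4 were lower, *Mt1* (adjusted p = 0.022) and *Mt2* (adjusted p = 0.0038). The importers of copper (*Slc31a1*, −0.05, adjusted p = 0.56), iron (*Slc11a2*, 0.07, adjusted p = 0.34) and heme (*Slc48a1*, −0.04, adjusted p = 0.65) did not pass it either.

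**Figure D2:**
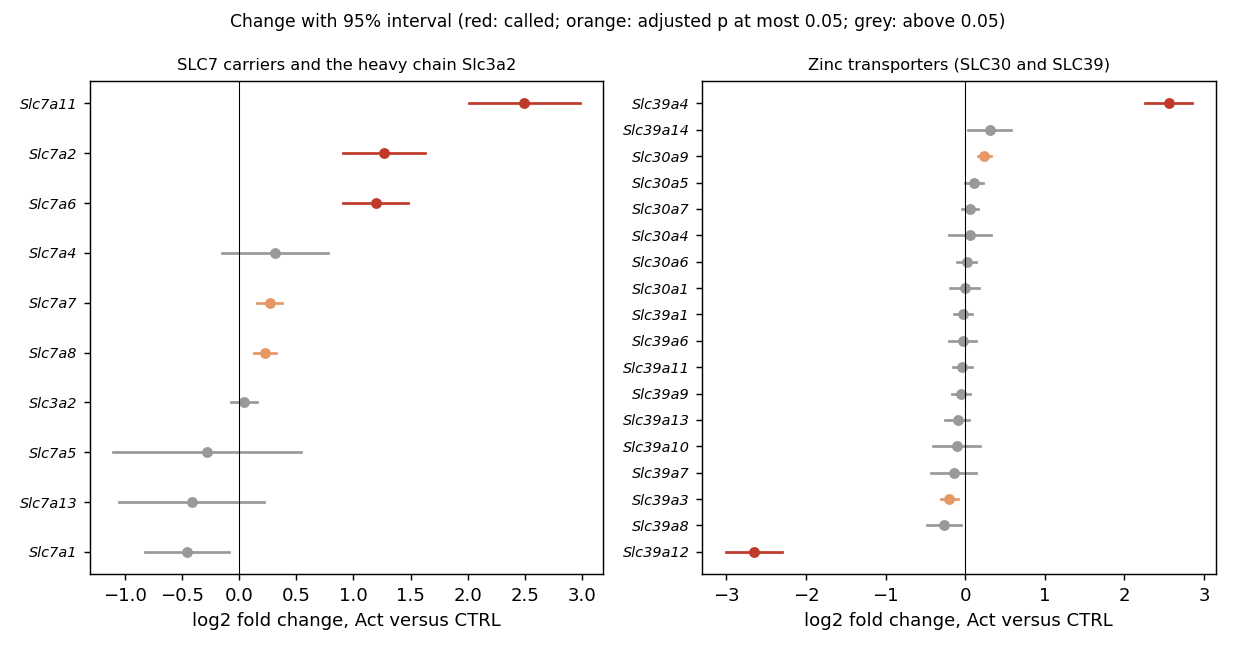
Log2 fold change in Act versus CTRL (horizontal axis) with its 95% interval. The left panel holds the SLC7 carriers and *Slc3a2*, the heavy chain of some of them. The right panel holds the zinc transporters of the SLC30 and SLC39 families. *Slc7a11*, *Slc7a2* and *Slc7a6* are called while *Slc3a2* has an interval of −0.07 to 0.16, and the zinc transporters cluster around 0 except *Slc39a4* (2.55) and *Slc39a12* (−2.66).

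Among the 16 carriers of sugars and carboxylates, 3 were higher and 4 lower in Act by the adjusted p. Of the 5 members of the SLC2 family, which holds glucose carriers, 2 were higher and 2 lower. *Slc2a6*, encoding GLUT6, had 234, 266 and 195 normalized counts in CTRL, 441, 416 and 541 in Act, 301, 312 and 321 in Act+FST, and 294, 242 and 232 in FST. Act was the highest group without overlap, and Act+FST lay between it and CTRL. The rise was 2.01-fold (adjusted p = 1.1e-04), at the edge of the 2-fold limit, and it was under that limit without CTRL replicate 3 (log2 fold change 0.89), without Act replicate 3 (0.90), with quantile normalization (0.98) and with a pseudocount of 5 (0.995).

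*Slc2a1*, the widespread glucose carrier GLUT1, rose under 2-fold, from 293, 227 and 238 to 440, 405 and 438 normalized counts (log2 fold change 0.77, adjusted p = 0.0057), and stood at 302, 195 and 246 in Act+FST. The lactate exporter *Slc16a3*, MCT4, rose from 412, 367 and 260 to 546, 551 and 552 (0.69, adjusted p = 0.015). The 3 Act libraries of *Slc16a3* were nearly equal, while replicate 1 was the highest in every other group, as 427 against 321 and 291 in Act+FST and 427 against 320 and 295 in FST. The lactate and pyruvate carrier *Slc16a1* did not pass the test (0.06, 95% interval −0.25 to 0.38), nor did *Bsg*, the partner protein of these carriers (−0.02, adjusted p = 0.82).

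Lower in Act were the high-affinity glucose carrier *Slc2a3* and the urate carrier *Slc2a9*, both singled out after their values were seen. *Slc2a3* fell from 270, 300 and 284 to 187, 244 and 211 normalized counts (−0.42, adjusted p = 0.005). *Slc2a9* fell from 468, 461 and 481 to 315, 334 and 320, with narrow groups (−0.54, adjusted p = 9.9e-06). *Slc13a2*, the sodium-coupled carrier of citrate cycle dicarboxylates, was called lower, with 68, 48 and 56 in CTRL and 33, 27 and 23 in Act (−1.03, adjusted p = 0.002). It shares 26.2% of its exonic bases with the antisense gene *Slc13a2os*, from which its reads cannot be told apart unless strand was used in counting, and the call was lost without CTRL replicate 1 (−0.90) or Act replicate 3 (−0.91), with a pseudocount of 5 (−0.93) and with quantile normalization (−0.98).

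Of the 24 carriers of inorganic ions and pH, 3 were higher and 3 lower by the adjusted p, or 8 and 5 with the block. The chloride/bicarbonate exchanger *Slc4a3* had 32, 35 and 31 normalized counts in CTRL, against 65, 83 and 91 in Act, against 36, 46 and 44 in Act+FST (2.38-fold, adjusted p = 1.8e-04). Its relative *Slc4a11* had 47, 35 and 23 in CTRL and 83, 75 and 76 in Act, and 36, 19 and 14 in Act+FST (2.28-fold, adjusted p = 0.02). Both were higher in every Act library. The call of *Slc4a11* was lost without CTRL replicate 3 (adjusted p = 0.087), Act replicate 1 (0.06) or Act replicate 3 (0.053).

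More abundant ion carriers moved less. The sodium/calcium exchanger *Slc8a1*, singled out after its values were seen, had 1696, 1439 and 1437 normalized counts in CTRL, against 2351, 2208 and 2025 in Act (0.53, adjusted p = 0.0039). *Slc9a9* fell, from 1683, 1603 and 1737 to 1449, 1442 and 1262 (−0.28, adjusted p = 0.0073). The phosphate carrier *Slc20a1*, which is also a retrovirus receptor, had a log2 fold change of 0.06 (95% interval −0.05 to 0.16).

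The 37 mitochondrial carriers, the most numerous class, had a median log2 fold change of 0.00, with 5 higher and 3 lower by the adjusted p, or 9 and 5 with the block. Called was *Slc25a33*, which brings pyrimidine nucleotides into the matrix. It had 29, 25 and 28 normalized counts in CTRL, 67, 69 and 87 in Act, 22, 21 and 36 in Act+FST, and 23, 16 and 34 in FST (2.65-fold, adjusted p = 0.0028). Act was above all other libraries, and 14.89% of its exonic bases are shared with a gene on the opposite strand. *Slc25a42*, the coenzyme A carrier, fell under 2-fold, from 87, 109 and 99 to 51, 57 and 73 (−0.71, adjusted p = 0.0077). The oxoglutarate carrier *Slc25a11* (95% interval −0.12 to 0.11) and the citrate carrier *Slc25a1* (−0.12, adjusted p = 0.14) did not pass the test.

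Of the 30 carriers of nucleosides and nucleotide sugars, 3 were higher and 5 lower in Act, or 5 and 11 with the block. *Slc28a2*, which takes up purine nucleosides with sodium, was the called member. It fell from 317, 303 and 280 normalized counts in CTRL to 137, 114 and 103 in Act, with 338, 278 and 284 in Act+FST and 340, 316 and 357 in FST. The fall was by 1.35 on the log2 scale (adjusted p = 4.0e-06), without overlap with any other group. The lysosomal nucleoside carrier *Slc29a3*, with 251 normalized counts per kb, had a log2 fold change of 0.12 (95% interval 0.00 to 0.23, adjusted p = 0.14, or 0.017 with the block).

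Among the 28 carriers of vitamins, lipids and organic ions, 3 were higher and 5 lower by the adjusted p, or 4 and 12 with the block, and the median log2 fold change was −0.12. *Slc22a17*, a receptor for lipocalin 2, rose from 42, 50 and 39 to 80, 99 and 104 normalized counts (2.13-fold, adjusted p = 2.9e-04) and was 39, 43 and 38 in Act+FST. The vesicular monoamine carrier *Slc18a1* fell from 61, 46 and 53 to 14, 17 and 16 (−1.70, adjusted p = 1.3e-04). In Act+FST it was 48, 26 and 40, which overlapped with CTRL. In FST it was 71, 66 and 64, above CTRL in every library, but FST versus CTRL did not pass the test (0.33, unadjusted p = 0.14 in limma). The vesicular polyamine carrier *Slc18b1* fell as well (−0.71, adjusted p = 0.0027), as did *Slc22a18* (−0.70, adjusted p = 0.007).

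Rises under 2-fold in this class included *Slc22a4*, the ergothioneine carrier (0.68, adjusted p = 0.0076), and the choline carrier *Slc44a1* (0.43, adjusted p = 0.0021), the latter singled out after its values were seen. The proton-coupled folate carrier *Slc46a1* had 117, 136 and 135 normalized counts in CTRL, against 119, 125 and 145 in Act, and the groups overlapped (95% interval −0.25 to 0.25). Of the 3 genes that only share the prefix, *Slc9a3r1* was lower in Act (−0.20, adjusted p = 0.0028).

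**Figure D3:**
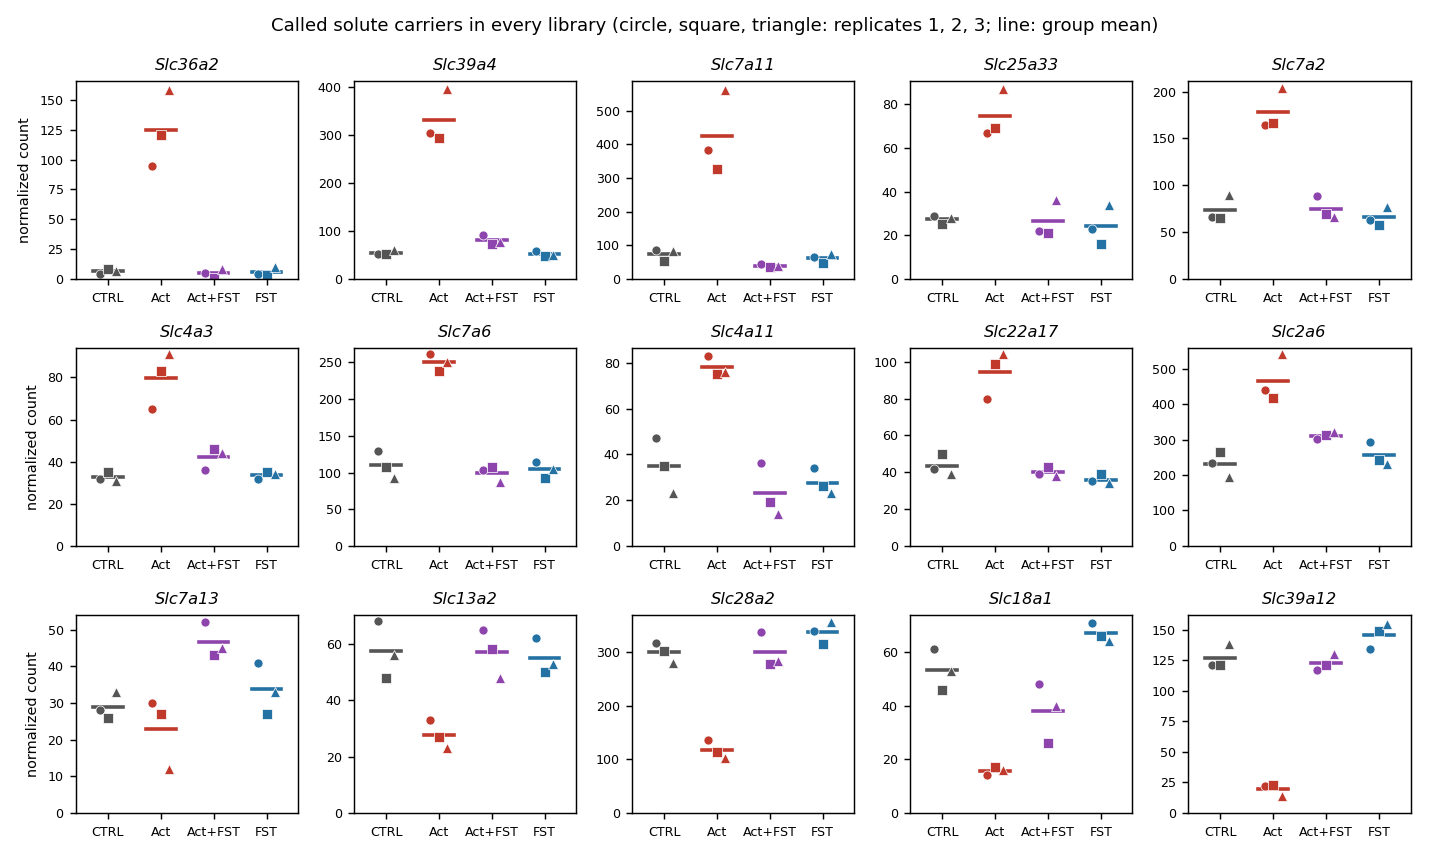
Normalized counts (vertical axes, from 0) of the 15 members called in Act versus CTRL or in Act versus Act+FST, in every library of the 4 groups (horizontal axes). Circle, square and triangle are replicates 1, 2 and 3 and lines are group means. Except for *Slc7a13*, the Act libraries lie apart from those of the other groups.

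Adding FST288 to activin A is the comparison that asks whether the changes depend on free activin. In Act versus Act+FST, which shares its Act libraries with the comparison above, 8 members were called higher in Act (background 2.72%) and 5 lower (background 3.11%). These hold the same 3 genes that reached the limit of 20 through some groups alone, and 7 and 3 remain without them. By the adjusted p alone, 32 were higher (background 11.1%) and 25 lower (background 10.2%), or 46 and 34 with the block (17.1% and 15.4% of all genes), and 30 and 30 with quantile normalization. The 8 called higher were *Slc36a2* (4.69), *Slc7a11* (3.34), *Slc39a4* (2.02), *Slc4a11* (1.82), *Slc7a6* (1.33), *Slc7a2* (1.25) and *Slc22a17* (1.21 on the log2 scale) together with *Slc25a33*, 2.82-fold higher. Called lower were *Slc39a12* (−2.61), *Slc28a2* (−1.34), *Slc18a1* (−1.19), *Slc7a13* (−1.08) and *Slc13a2* (−1.02). *Slc4a3* (0.90, adjusted p = 0.0017) and *Slc2a6* (0.57, adjusted p = 0.0052) passed the adjusted p but not the 2-fold limit. Without Act+FST replicate 3, 16 members instead of 25 were lower by the adjusted p, and 3 instead of 5 were called lower without Act replicate 3 or without Act+FST replicate 1, where *Slc13a2* and *Slc7a13* lost their calls.

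With FST288 present, activin A changed no member past the thresholds. In Act+FST versus FST, 0 members were called higher and 0 lower (background 0% in both directions), with 3 higher and 7 lower at an unadjusted p under 0.05 in limma (1.6% and 1.91% of all genes). Act+FST versus CTRL likewise gave 0 and 0 (background 0%), with 5 and 8 at an unadjusted p under 0.05 (2.49% and 2.08% of all genes), and 174 of the 190 log2 fold changes were under 0.2 in size. In FST versus CTRL, 0 were called in either direction (background 0%), with 1 higher and 4 lower unadjusted (1.15% and 0.936% of all genes). The replicate block left these counts of called members at 0. It gave 6 higher and 19 lower unadjusted in Act+FST versus FST (3.35% and 4.82% of all genes), 8 and 16 in Act+FST versus CTRL (4.66% and 5.15%), and 6 and 5 in FST versus CTRL (2.7% and 2.19%).

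The difference between the activin effect without FST288 (Act versus CTRL) and with it (Act+FST versus FST) was tested as an interaction, which uses all 12 libraries. It was called positive for 5 members (background 1.34%) and negative for 3 (background 1.31%), and by the adjusted p alone for 12 (background 3.99%) and 5 (background 2.75%). *Slc36a2*, which had to differ, and *Slc39a12*, which was below the limit of 20 in Act, are among them, and 4 positive and 2 negative calls remain without them. With the block, 7 and 3 members were called (2.07% and 2.3% of all genes), adding *Slc25a33* and *Slc4a11*, and 32 and 16 passed the adjusted p (9.36% and 6.96% of all genes). The count of 12 fell to 5 without CTRL replicate 3, to 7 without Act replicate 3 and to 6 without FST replicate 1. The positive members were *Slc36a2* (4.45), *Slc7a11* (3.11), *Slc39a4* (1.93), *Slc7a6* (1.26) and *Slc7a2* (1.10), and the negative ones *Slc39a12* (−2.41), *Slc28a2* (−1.17) and *Slc13a2* (−1.07 on the log2 scale). *Slc18a1* was not among them (−0.86, adjusted p = 0.12). The call of *Slc7a2* was lost without Act replicate 3 (0.996) or FST replicate 3 (0.98). That of *Slc13a2* was lost with a pseudocount of 5 (−0.97), with quantile normalization (−0.997) and without any 1 of 8 libraries, namely CTRL replicate 1 or 3 and replicates 2 and 3 of Act, 1 and 2 of Act+FST, and 2 and 3 of FST.

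**Figure D4:**
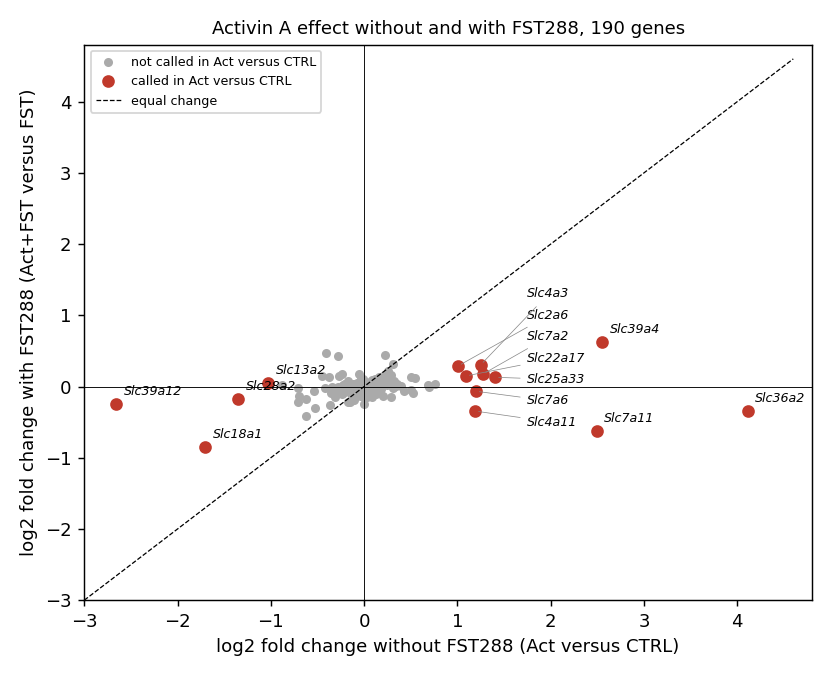
Log2 fold change with activin A in the absence of FST288 (Act versus CTRL, horizontal axis) and in its presence (Act+FST versus FST, vertical axis) for the 190 genes, each a point and red where called in Act versus CTRL. The axes share no library, and the dashed line marks equal change. The red points spread from −2.66 to 4.11 along the horizontal axis and stay between −0.84 (*Slc18a1*) and 0.62 (*Slc39a4*) along the vertical one.

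Several members varied with the replicate number in the same way in every group. By the adjusted p of a test for any difference between replicate numbers, adjusted for the 4 groups, 58 members passed (30.5%), against 21.6% of all genes tested and 24.4% of genes with a mean of at least 20. The clearest was *Slc15a2*, encoding the peptide carrier PEPT2. It had 25, 51 and 218 normalized counts in CTRL replicates 1, 2 and 3, then 29, 42 and 223 in Act, 24, 45 and 156 in Act+FST, and 25, 35 and 226 in FST. Replicate 3 was high in all 4 groups, and replicate 3 exceeded replicate 1 by 2.94 on the log2 scale (adjusted p = 1.0e-07). Its difference between Act and CTRL was −0.01, with a 95% interval of −2.23 to 2.20, so that a treatment effect could not be resolved without the block. With the block, the same difference had a standard error of 0.16 and did not pass the limma test (adjusted p = 0.96).

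The next members by that test differed by far less and in the other direction. The sulfate carrier *Slc26a2* was highest in replicate 1 of every group, as 844, 669 and 729 normalized counts in CTRL, against 919, 787 and 770 in Act. The Golgi cation/proton exchanger *Slc9a7* had 377, 274 and 324 in CTRL and 408, 320 and 330 in FST. The zinc importer *Slc39a10* was also highest in replicate 1, at 740, 578 and 561 in CTRL and 675, 505 and 476 in Act+FST. Stromal markers, too, were highest in replicate 1 of every group, with sums of 77, 251, 111 and 132 in CTRL, Act, Act+FST and FST against 22 to 61 in the other libraries, and their part in these differences was not tested.

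**Figure D5:**
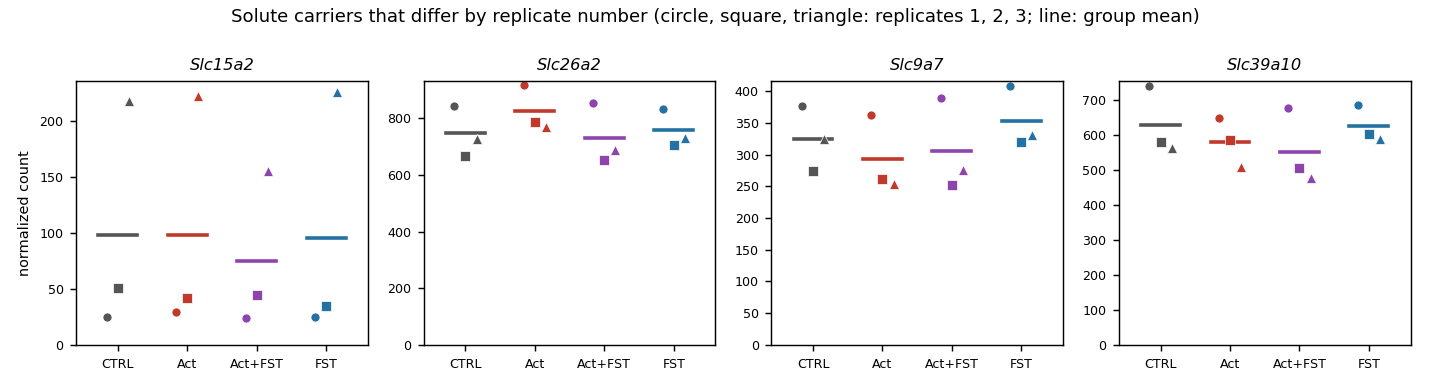
Normalized counts (vertical axes, from 0) in every library of the 4 groups (horizontal axes) for the 4 members with the lowest p for a difference between replicate numbers. Circle, square and triangle are replicates 1, 2 and 3 and lines are group means. *Slc15a2* is between 156 and 226 in replicate 3 of all groups and between 24 and 51 in the others, while *Slc26a2*, *Slc9a7* and *Slc39a10* are highest in replicate 1.

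Other transport genes, in lists defined by symbol, also contained members that passed the test. Of 34 ABC transporters tested, 8 were higher and 7 lower in Act versus CTRL by the adjusted p (all genes, 10.3% and 9.97%), or 11 and 9 with the block (all genes, 16.3% and 15.2%), and 0 were called higher and 2 lower. Of 23 P-type ATPases 4 were higher and 1 lower, or 7 and 4 with the block, with 1 called higher. Of 18 Mfsd genes, 0 were higher and 3 lower, or 1 and 4 with the block, which also called *Mfsd13b* lower (−1.39, adjusted p = 0.04). Of 16 subunits of the vacuolar proton pump, 0 were higher and 5 lower, or 0 and 9 with the block, with 1 called lower. The 5 organic anion transporters of the Slco family gave 0 by the adjusted p, or 3 higher with the block, which called *Slco5a1* higher (1.64, adjusted p = 0.0045). *Mfsd13b* and *Slco5a1* are named after their values were seen. None of the 5 partner proteins examined passed the test.

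RefSeq gave a promoter, here 250 bases before to 50 after a gene's start, for 141 of the 190 members and for 27025 genes in all. The motif TGATGNAA was found on either strand for 5 members (3.55%) and 4.51% of all genes, and the antioxidant response element TGACNNNGC for 33 members (23.4%) and 14.0%. The E-box CACGTG was found for 26 members (18.4%) and 8.09% of all genes, AP-1 sites TGAGTCA for 5 (3.55%) and 5.95%, and the SMAD palindrome GTCTAGAC for 0 and 0.248%. These are descriptions of the letters in those windows. The 27025 genes were not limited to genes expressed in these cells, as the members were. Of the 14 members called in Act versus CTRL, 9 had a promoter, and *Slc7a11* was the member among them with TGATGNAA.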

How the data were processed

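RNA was sequenced from 12 BMDM libraries in 4 groups of 3, with groups and replicate numbers taken from the sample labels. Per the submitters' processing notes and the study's methods, the authors trimmed reads with Trimmomatic 0.39, aligned them to mm10 with STAR 2.7.9a and counted them per gene with featureCounts 2.0.2, excluding ambiguous and multimapping reads. The authors deposited a signal per gene and library, gene counts that they scaled by 1 factor per library and rounded, called normalized counts here. The scaling formula, the strand setting and any removal of duplicates are not given in the sources used here. The original depth is therefore unknown, and precision rests on the spread between 3 libraries. No column of other samples was used.

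Group differences were tested, two-sided, with limma 3.58.1 (R 4.3.3), with empirical Bayes moderation along a mean trend, on log2(normalized count + 1). The model held the 12 libraries and 4 group means and covered 14318 genes, those whose mean reached 5, over which adjusted p-values (Benjamini-Hochberg) were computed. All 190 members entered it. No count model was run, because the values are not raw counts. The script was tested on simulated data. Coordinates and exonic lengths come from GENCODE M21 (GRCm38), where all 190 members have the coordinates of the table. Promoters are from RefSeq, GRCm38.p6, searched on both strands, and a gene held a motif if any of its promoters did.

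Replicate numbers come from the labels. Libraries with the same number deviated from their group means together (18 pairs, mean r across genes 0.312, lowest 0.157, highest 0.481), so a block for the number was the paired alternative. The mean of −0.155 for 36 pairs with different numbers adds no evidence, because deviations from a group mean cancel out within the group. The other alternatives were pseudocounts of 0.5 and 5, no minimum mean or one of 50, quantile normalization, TMM factors, a 1.5-fold limit, only the groups compared, and leaving out each library. Correcting for reads that share a start position was an alternative chosen after seeing the data.

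Members, substrate classes and gene lists were chosen with earlier results of these data known. Named are the members called in any comparison, the 2 with the most normalized counts per kb in each class, textbook macrophage carriers, the 3 largest rises and falls that passed under 2-fold, and the members beside the mean of 20. Other members named to complete the SLC7 and zinc families or for their size were singled out after their values were seen.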

Additional observations from a re-analysis of the deposited data

Results flagged for a closer look

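The effect of activin A differed between cells without and with FST288 for 8 members, by the interaction test of limma with a difference of at least 2-fold. In log2 units, the effect without FST288 minus the effect with it was 4.45 for *Slc36a2* (adjusted p = 0.0036), 3.11 for *Slc7a11* (adjusted p = 1.8e-04), 1.93 for *Slc39a4* (adjusted p = 1.8e-04), 1.26 for *Slc7a6* (adjusted p = 0.0017) and 1.10 for *Slc7a2* (adjusted p = 0.016). It was −2.41 for *Slc39a12* (adjusted p = 1.4e-04), −1.17 for *Slc28a2* (adjusted p = 7.7e-04) and −1.07 for *Slc13a2* (adjusted p = 0.031). In each of the 8, all 3 Act libraries lay on the same side of all 9 other libraries. The 8 were chosen by their difference in these same libraries, so the separation only describes them and adds no evidence. *Slc36a2* is a member only through Act, where it is high, so it had to differ and its p-value is not independent of how the members were chosen. *Slc39a12* reached the limit through the groups outside Act (a mean of 132, against 19.7 in Act). It would have done so at any level in Act. The interaction call of *Slc13a2* was lost without any 1 of 8 libraries, with a pseudocount of 5 and with quantile normalization, and that of *Slc7a2* without Act replicate 3 or FST replicate 3.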

How the results depend on the processing

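Single-gene log2 fold changes of Act against CTRL or Act+FST, and the interactions of called members, were recomputed under every alternative. Of these values, 2358 kept their direction and side of the threshold, 31 were weaker, 14 were stronger and 33 changed sign. The weaker ones were those of *Slc13a2*, *Slc2a6*, *Slc4a11* and *Slc7a13* and the interaction of *Slc7a2*. The stronger ones were *Slc4a3* in Act versus Act+FST without Act replicate 1 (1.04) and the interactions of *Slc18a1*, *Slc22a17*, *Slc25a33*, *Slc4a11* and *Slc4a3*. The changes of sign came from 12 genes close to 0, at most 0.064 in size and with adjusted p-values of 0.57 or more. Quantile normalization turned *Slc43a2* to 0.006 in Act versus CTRL and *Slc25a11* to −0.027 in Act versus Act+FST. Leaving out 1 library gave, in Act versus CTRL, −0.038 to 0.211 for *Slc16a1*, −0.081 to 0.039 for *Slc1a5*, −0.013 to 0.019 for *Slc25a11*, −0.083 to 0.037 for *Slc30a1*, −0.054 to 0.003 for *Slc39a1*, −0.081 to 0.061 for *Slc46a1*, −0.081 to 0.024 for *Slc4a1ap* and −0.014 to 0.072 for *Slc50a1*. In Act versus Act+FST it gave −0.090 to 0.059 for *Slc1a5*, −0.039 to 0.053 for *Slc25a11*, −0.071 to 0.009 for *Slc26a11*, −0.063 to 0.023 for *Slc37a2*, −0.031 to 0.030 for *Slc39a1*, −0.021 to 0.068 for *Slc43a2* and −0.048 to 0.020 for *Slc6a6*. With a minimum mean of 50, 8 members were called in Act versus CTRL (6 higher, 2 lower) and 7 in Act versus Act+FST (5 higher, 2 lower), because low members such as *Slc36a2* were no longer tested. A 1.5-fold limit gave 8 lower in Act versus CTRL, 22 in Act versus Act+FST (14 higher, 8 lower) and 9 positive interactions. A pseudocount of 5 left 3 lower in Act versus Act+FST. With the replicate block, the adjusted p alone gave 46 lower in Act versus CTRL, 1 lower in Act+FST versus CTRL, and 32 positive and 16 negative interactions. The block called the same members as the fit without it in Act versus CTRL and in Act versus Act+FST. Leaving out 1 library gave 11 to 14 called members in Act versus CTRL, 3 to 5 called lower in Act versus Act+FST and 16 to 25 lower by the adjusted p there, and 5 to 13 positive interactions by the adjusted p. The TMM factors and the start-position correction left all counts of called members within 1.5 times of those reported. The original read depth is unknown, and 3 libraries per group limit the precision of every value.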
